A study of Homo sapiens with 12 samples.

Results

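A set of 10 genes is widely used to mark stem-like or tumor-initiating cells, and their levels were read from RNA-seq read counts of 12 libraries of lung cancer cell lines. The members were taken by symbol as markers of such cells: the aldehyde dehydrogenases ALDH1A1, ALDH1A3 and ALDH3A1, the surface proteins PROM1 and CD44, the drug transporter ABCG2, the transcription factors POU5F1, NANOG and KLF4, and the receptor LGR5. They are 10 of the 22506 genes counted. The libraries came from 4 lines that the series title assigns to lung squamous cell carcinoma, named H1703, H1299, CHAGO and CALU in the labels. Each line gave 3 libraries: tumor-initiating cells (TICs) in which PRKCI, the gene of protein kinase C iota, was knocked down, TICs without the knockdown, and adherent parental cells. That makes 4 libraries per state and 1 library for each line in each state. The sources used here do not say how the TICs were selected or which knockdown construct was used. No allele, drug or added treatment is named for any group. The lines therefore serve as the replicates of a state, and the spread between them is a spread between different tumors.

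Aldehyde dehydrogenases oxidize aldehydes to acids, and a dye test of that activity is a common way to sort stem-like cancer cells. ALDH1A1 and ALDH1A3 make retinoic acid from retinal, whereas ALDH3A1 clears aromatic and lipid aldehydes. CD44 binds hyaluronan in the matrix, PROM1 encodes CD133 on membrane protrusions, and ABCG2 pumps dyes and drugs out of the cell, which produces the so-called side population. POU5F1 (OCT4) and NANOG hold embryonic stem cells in the pluripotent state, KLF4 is one of the reprogramming factors and is also made by differentiating epithelium, and LGR5 is the R-spondin receptor of intestinal stem cells.

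Of 6 markers that could be tested, edgeR called 5 between lines, against 45.4% of all tested genes. It called none between states, where it called 0.0143% to 0.0357% of all tested genes. The marker with the highest level was ALDH1A1 in H1703, KLF4 in CHAGO, and CD44 in both H1299 and CALU, with ALDH1A3 next in CALU. None of the 10 was expressed in all 12 libraries. NANOG had no read anywhere, LGR5 had 2 reads, POU5F1 stayed under 1 CPM (reads per M reads; M, mega), and PROM1 passed 1 CPM in 1 library. DESeq2 run on all genes called 1 marker between states, ALDH1A3 in knockdown TICs against parental cells. In that comparison it called 885 of the 22506 genes, 4044 of which had no read in any library.

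Promoter sequences are shown for the 3 members with the most reads. They come from RefSeq on GRCh38.p14, run 5′ to 3′ on the strand of the gene, and reach from 250 bases before to 50 bases after the annotated start. Capitals mark every CG dinucleotide, the site of DNA methylation, a feature in which the windows differ. The CD44 window is chr11:35138921-35139220 on the plus strand, the ALDH1A1 window is chr9:72953004-72953303 on the minus strand, and the ALDH1A3 window is chr15:100879581-100879880 on the plus strand.
CD44: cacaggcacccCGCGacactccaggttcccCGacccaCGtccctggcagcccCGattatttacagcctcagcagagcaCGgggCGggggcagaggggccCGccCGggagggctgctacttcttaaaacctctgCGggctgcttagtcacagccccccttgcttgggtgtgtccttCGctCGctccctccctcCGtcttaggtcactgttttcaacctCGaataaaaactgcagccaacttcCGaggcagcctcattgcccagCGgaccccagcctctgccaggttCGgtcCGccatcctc
ALDH1A1: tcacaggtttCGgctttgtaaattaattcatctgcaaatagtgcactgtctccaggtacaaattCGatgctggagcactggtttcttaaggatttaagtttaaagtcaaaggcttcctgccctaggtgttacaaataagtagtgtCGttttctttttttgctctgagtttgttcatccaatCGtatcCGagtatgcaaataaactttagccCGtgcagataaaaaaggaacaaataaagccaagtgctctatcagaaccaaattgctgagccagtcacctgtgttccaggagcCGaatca
ALDH1A3: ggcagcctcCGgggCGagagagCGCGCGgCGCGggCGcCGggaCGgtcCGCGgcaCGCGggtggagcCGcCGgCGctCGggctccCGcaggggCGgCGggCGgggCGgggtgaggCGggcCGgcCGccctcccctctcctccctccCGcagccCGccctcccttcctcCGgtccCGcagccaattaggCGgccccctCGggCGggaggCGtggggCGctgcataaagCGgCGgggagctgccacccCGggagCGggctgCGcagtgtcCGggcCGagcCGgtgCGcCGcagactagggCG

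The ALDH1A3 window held 46 CG dinucleotides, a number that 2.89% of 35116 RefSeq promoters of the same length reached or passed. The CD44 window held 18, reached or passed by 44.5% of promoters, and the ALDH1A1 window held 7, reached or passed by 63.2%, against a median of 14. GC content was 81.7% for ALDH1A3, 63.3% for CD44 and 40.3% for ALDH1A1. The motif CCAAT, searched on both strands, was in the ALDH1A1 and ALDH1A3 windows and in 34.6% of all promoters. The motif TATAAA, searched in the same way, was in none of the 3 windows and in 11.5% of all promoters. Of the 10 members, 7 had a promoter entry. The libraries measure RNA, and no methylation was measured.

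Libraries held between 21.2 and 91.8 M reads in genes. The H1703 and H1299 libraries, with 21.2 to 36.1 M, were shallower than the CHAGO and CALU libraries, with 63.8 to 91.8 M. Taking 3 reads as the limit, a count of 0 allowed a level of 0.0346 to 0.135 CPM, depending on the library. These limits and all intervals on single libraries cover counting error only. PRKCI checked the knockdown labels: it had 58.1, 25.8, 23.2 and 41.5 CPM in knockdown TICs of H1703, H1299, CHAGO and CALU, against 342, 199, 608 and 237 CPM in TICs. The log2 fold change was -3.15 (SE 0.37, adjusted p = 0.0489, edgeR), lower in all 4 lines. Markers of lung and squamous epithelium did not run alike in the lines. The summed level of 5 lung adenocarcinoma genes lay between 5.38 and 53.5 CPM in CALU and at 1.35 CPM or less in the other 3 lines. In CALU TICs, NKX2-1 had 26.7 CPM and SFTPB 26.8 CPM, whereas SFTPA1 and SFTPC had no read in any library. The summed level of 5 epithelial genes lay between 1452 and 1945 CPM in CHAGO, 132 and 354 CPM in CALU, 23.1 and 28.1 CPM in H1299, and 0.193 and 1.64 CPM in H1703. The summed level of 7 squamous genes lay between 25.6 and 125 CPM in CHAGO, 2.80 and 45.4 CPM in CALU, 6.22 and 38.8 CPM in H1299, and 0 and 3.60 CPM in H1703. Within that list, TP63 had 43.9 CPM in knockdown TICs, 36.2 CPM in TICs and 4.26 CPM in parental cells of CHAGO, and 2.73, 45.2 and 3.05 CPM in the same states of CALU, and stayed under 1 CPM in H1299 and H1703. KRT5 and KRT6A had no read in H1703 and H1299. KRT6A, DSG3, KRT5 and KRT14 were highest in CHAGO knockdown TICs, with 43.6, 30.4, 2.52 and 2.47 CPM. KRT6A had 20.3 CPM in TICs and 0.255 CPM in parental cells of CHAGO. Fibroblast genes also followed the line: their sum over 5 genes lay between 2554 and 3077 CPM in H1703, nearly all of it PDGFRA, between 390 and 1456 CPM in CALU, and at 6.17 CPM or less in CHAGO and H1299. The sum over 5 endothelial genes lay between 18.1 and 47.5 CPM in CALU, with PECAM1 at 45.0 CPM in CALU TICs, and at 3.42 CPM or less in the other 3 lines. The sum over 5 leukocyte genes was at 4.10 CPM or less in 11 libraries and at 78.9 CPM in H1703 parental cells, all of it ITGAM. The part of such differences in the marker levels was not tested, and fewer cells of a kind cannot be told apart from less RNA per cell in bulk libraries.

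At a threshold of 1 CPM, 7 of the 10 markers were expressed in at least 1 library, against 68.1% of all genes counted. None was expressed in all 12 libraries, against 35.6% of all genes and 52.2% of the genes expressed in at least 1. Knockdown TICs expressed 2 of them in the H1703 library, 3 in that of H1299, 4 in that of CHAGO and 5 in that of CALU. TICs expressed 2, 3, 4 and 6 of them in the same lines, and parental cells 2, 2, 3 and 6. Between 48.1% and 52.2% of all genes were expressed in each library. ALDH1A1, CD44 and ABCG2 were each at or above 1 CPM in all 3 libraries of 1 line and without any read in all 3 libraries of another, which 5.44% of all genes were. KLF4 alone had reads in all 12 libraries.

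**Figure D1:**
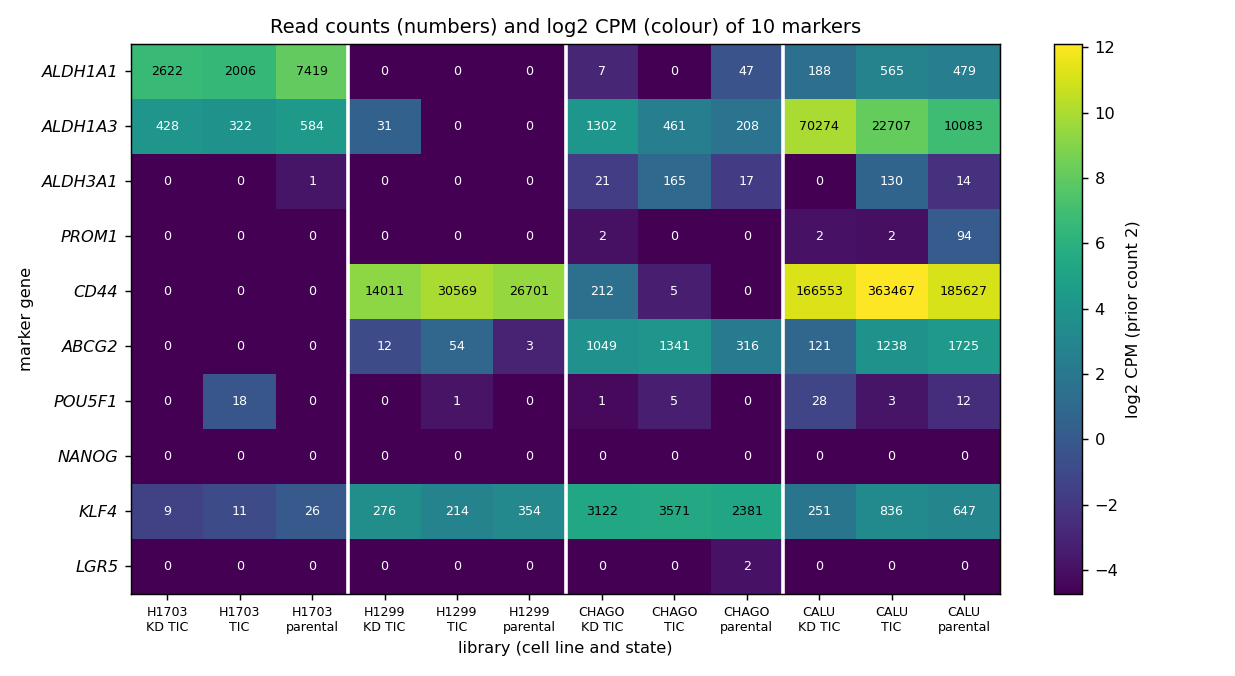
Read counts (numbers) and log2 CPM (colour, prior count 2) of the 10 markers in the 12 libraries, with KD TIC standing for PRKCI knockdown TICs. CD44 has 363467 reads in CALU TICs and 0 in the H1703 libraries, and the NANOG row is 0 throughout.

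Retinal-oxidizing enzymes came first among the members by role. ALDH1A1 was a gene of H1703. Its level there was 101 CPM in knockdown TICs, 90.3 CPM in TICs and 270 CPM in parental cells. In CALU it was 2.65 CPM in knockdown TICs, 6.82 CPM in TICs and 5.53 CPM in parental cells. All 3 H1703 libraries lay above every other library, and all 3 CALU libraries lay above those of CHAGO and H1299. CHAGO had 7 reads in knockdown TICs, 0 in TICs and 47 in parental cells, and H1299 had no read in any state. Pooled over states, the H1703 level was 31.1-fold that of CALU (counting interval 29.3 to 33.0) and 661-fold that of CHAGO (506 to 880). It was at least 3976-fold that of H1299, the lower counting limit.

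ALDH1A3 was highest in CALU. There it had 990 CPM in knockdown TICs, 274 CPM in TICs and 116 CPM in parental cells. In CHAGO it had 17.2 CPM in knockdown TICs, 5.64 CPM in TICs and 3.12 CPM in parental cells. The 2 lines thus ordered their states alike, with knockdown TICs highest and parental cells lowest. In H1703 the values were 16.5 CPM in knockdown TICs, 14.5 CPM in TICs and 21.2 CPM in parental cells, within a narrow range. In H1299 the 31 reads of the knockdown TICs, or 1.37 CPM, stood against 0 reads in TICs and in parental cells. The lines ran in the order CALU, H1703, CHAGO, H1299, and the ranges of H1703 and CHAGO overlapped. Part of the ALDH1A3 exons, 1585 bases, is also covered by an antisense gene, and the sources used here do not say whether counting used strand.

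ALDH3A1, the aldehyde-clearing enzyme induced through the aryl hydrocarbon receptor, was low. It passed 1 CPM only in TICs of CHAGO, with 2.02 CPM, and in TICs of CALU, with 1.57 CPM. The same lines had 0.278 and 0 CPM in knockdown TICs and 0.255 and 0.162 CPM in parental cells. H1299 had no read in any state, and H1703 had 1 read in parental cells alone.

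Among the surface and transport markers, CD44 had the highest level. In CALU it reached 2347 CPM in knockdown TICs, 4388 CPM in TICs and 2143 CPM in parental cells. In H1299 it reached 618 CPM in knockdown TICs, 987 CPM in TICs and 694 CPM in parental cells. TICs were the highest state in both lines, and the ranges of the lines did not overlap. CHAGO held 212 reads in knockdown TICs, 5 in TICs and 0 in parental cells, a level of 2.80 CPM at most. H1703 had no CD44 read in any of its 3 libraries. The CALU level was 3.85-fold that of H1299 and 3074-fold that of CHAGO (counting interval 2691 to 3528). It was at least 61031-fold that of H1703, the lower counting limit.

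ABCG2, the dye and drug pump, was expressed in all libraries of CHAGO and CALU and in TICs of H1299, with 1.74 CPM. In CHAGO it had 13.9 CPM in knockdown TICs, 16.4 CPM in TICs and 4.74 CPM in parental cells. In CALU it had 1.71 CPM in knockdown TICs, 14.9 CPM in TICs and 19.9 CPM in parental cells. The 2 lines placed their parental cells at opposite ends, their ranges overlapped, and the lowest CALU library lay within the range of H1299. H1299 had 12 reads in knockdown TICs, 54 in TICs and 3 in parental cells, and H1703 had none. PROM1, the CD133 gene, had 94 reads (1.09 CPM) in CALU parental cells, against 2 reads in CALU TICs and 2 in CALU knockdown TICs. Its only other reads were 2 in CHAGO knockdown TICs.

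KLF4, the widest of the transcription factors, was highest in CHAGO. It had 41.3 CPM in knockdown TICs, 43.7 CPM in TICs and 35.7 CPM in parental cells of that line. In H1299 it had 12.2 CPM in knockdown TICs, 6.91 CPM in TICs and 9.21 CPM in parental cells, and in CALU 3.54, 10.1 and 7.47 CPM in the same states. The ranges of H1299 and CALU overlapped, and CHAGO lay above both. H1703 stayed under 1 CPM, with 0.347 CPM in knockdown TICs, 0.495 CPM in TICs and 0.945 CPM in parental cells. The CHAGO level was 4.42-fold that of H1299, 5.61-fold that of CALU and 66.6-fold that of H1703.

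POU5F1 did not reach 1 CPM in any library. Its highest values were 0.810 CPM (18 reads) in H1703 TICs and 0.395 CPM (28 reads) in CALU knockdown TICs, and its exons share 248 bases with TCF19 on the other strand. POU5F1 and NANOG also have processed pseudogene copies, so the assignment of the few POU5F1 reads is uncertain. NANOG was not detectable at this depth. LGR5 had 2 reads, both in CHAGO parental cells.

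**Figure D2:**
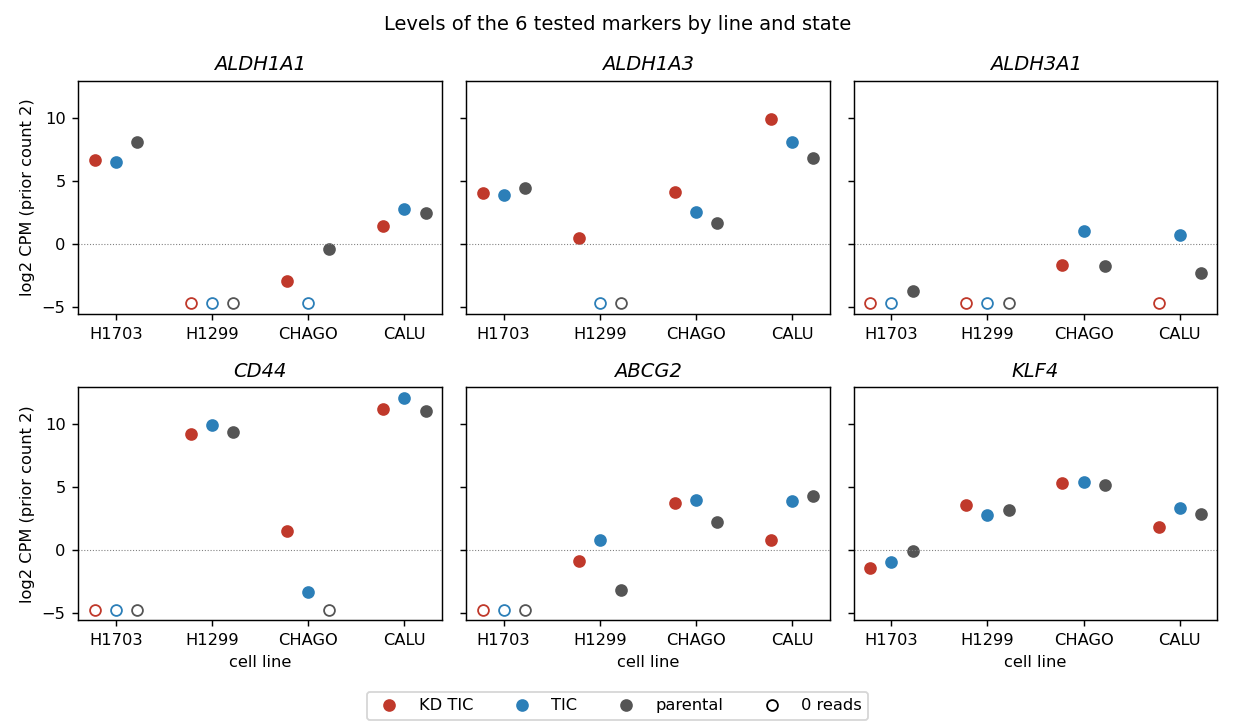
Log2 CPM (prior count 2) of the 6 markers kept for testing, by line and state, with filled points for libraries with reads and open points for libraries with 0 reads. CD44 is at 618 CPM or more in H1299 and CALU and has no read in H1703, whereas KLF4 has reads in every library.

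Of the 10 markers, 6, namely ALDH1A1, ALDH1A3, ALDH3A1, CD44, ABCG2 and KLF4, passed the filter on low counts and were tested with 14008 genes in edgeR. The filter kept 62.2% of all genes, and PROM1, POU5F1, NANOG and LGR5 were left out by it. The line test asks whether a gene differed between any of the 4 lines, with the 3 states of a line as its libraries. It called 5 of the 6 tested markers, against 45.4% of all tested genes. The adjusted p-values were 0.000393 for ALDH1A3, 0.000449 for KLF4, 0.000475 for ALDH1A1, 0.00118 for CD44 and 0.00620 for ABCG2 in edgeR's quasi-likelihood F test. ALDH3A1 was not called by this test, with an adjusted p of 0.0840. ABCG2 was not called once the TIC libraries were left out, with an adjusted p of 0.0616.

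Each line was then set against the mean of the other 3. KLF4 was higher in CHAGO, by 3.59 on the log2 scale (SE 0.40, adjusted p = 0.000211 in edgeR), and lower in H1703, with a log2 fold change of -4.58 (SE 0.60, adjusted p = 0.00058). ALDH1A3 was higher in CALU, by 6.63 (SE 0.65, adjusted p = 0.000129), and lower in H1299 (adjusted p = 0.00198); 5.65% of all genes were lower in H1299 by this test. ALDH1A1 was higher in H1703 (adjusted p = 0.000194) and in CALU (0.0231) and lower in H1299 (0.00525). CD44 was higher in CALU (adjusted p = 0.000497) and in H1299 (0.00245) and lower in H1703 (0.00423). ABCG2 was higher in CHAGO (adjusted p = 0.00658) and in CALU (0.00928) and lower in H1703 (0.00652). ALDH3A1 was higher in CHAGO in this contrast (adjusted p = 0.0408). No fold change is given for contrasts with a line at 0 reads, since the fitted value then depends on the prior count. That line pulls the mean of the others down, so a line called higher in such a contrast need not be the highest. ALDH1A1 was called higher in CALU although the pooled H1703 level was 31.1-fold that of CALU. CD44 was called higher in H1299 although the CALU level was 3.85-fold that of H1299. The single-line contrasts called 25.5% of all genes for H1703, 16.9% for H1299, 28.4% for CHAGO and 25.5% for CALU, where 9.27% were lower.

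Levels per exon length allow genes to be compared with each other, and by them CD44 led in 2 lines, ALDH1A1 in 1 and KLF4 in 1. CD44 averaged 296 RPKM (reads per kilobase of exon per M reads) and ALDH1A3 79.7 RPKM in CALU. CD44 averaged 76.6 RPKM in H1299, where KLF4 followed with 2.58 RPKM. ALDH1A1 averaged 54.0 RPKM in H1703, ahead of ALDH1A3 with 3.02 RPKM. KLF4 led in CHAGO with 11.0 RPKM, ahead of ABCG2 with 2.31 RPKM. No other marker of the 10 exceeded 3 RPKM as a mean of a line.

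**Figure D3:**
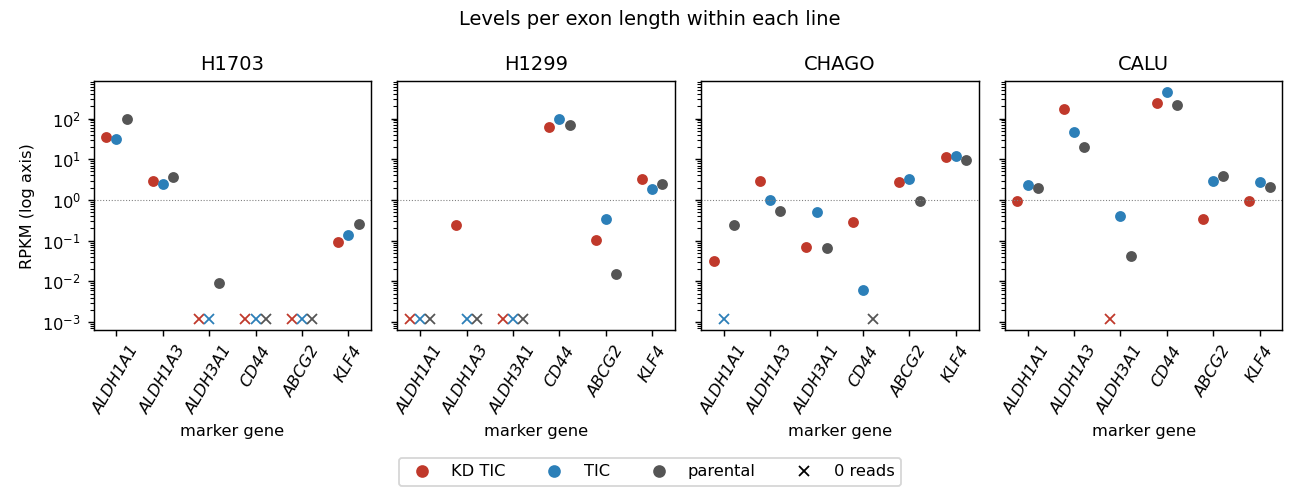
RPKM (log axis) of the 6 tested markers in each line, with KD TIC, TIC and parental libraries side by side and crosses at the foot for libraries with 0 reads. The highest marker is ALDH1A1 in H1703, CD44 in H1299 and CALU, and KLF4 in CHAGO.

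The TIC state was compared with parental cells to ask whether the markers follow the state that they are used to mark. With the line as a block, edgeR called none of the 6 tested markers, against 0.0286% of all tested genes, and none had an unadjusted p under 0.05, against 11.8% of all genes. DESeq2 and limma voom also called none. The median log2 fold change of the 6 was 0.57, against -0.02 over all tested genes. CD44 had a log2 fold change of 0.74 (SE 1.14, adjusted p = 0.855 in edgeR), and it was higher in the 3 lines that had reads. In CHAGO that was 5 reads against 0, a ratio with a lower counting limit of 0.747, which does not exclude no change. The CD44 mean was 1344 ± 2082 CPM in TICs and 709 ± 1010 CPM in parental cells (SD, n = 4 each). ALDH1A1 had a log2 fold change of -1.67 (SE 0.96, adjusted p = 0.560 in edgeR), and its TIC level in H1703 was 0.335 of the parental level (counting interval 0.318 to 0.352). ABCG2 had a log2 fold change of 1.32 (SE 1.27, adjusted p = 0.745 in edgeR): H1299 TICs had 22.3 times the parental level (54 against 3 reads, counting interval 7.25 to 112), CHAGO TICs 3.46 times and CALU TICs 0.750 times.

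Knockdown TICs were compared with TICs to ask whether PRKCI loss moves the markers. The edgeR test again called none of the 6, against 0.0143% of all tested genes. One marker, ALDH1A3, had an unadjusted p under 0.05, against 4.28% of all genes. DESeq2 and limma voom called none. ALDH1A3 had 256 ± 489 CPM in knockdown TICs and 73.6 ± 134 CPM in TICs (SD, n = 4 each), with a log2 fold change of 2.01 (SE 0.78, adjusted p = 0.980 in edgeR). It was higher in knockdown TICs in 4 of 4 lines, and 14.4% of all genes moved in 1 direction in all 4 lines. The ratio of knockdown TICs to TICs was 3.61 in CALU, 3.05 in CHAGO and 1.14 in H1703, where the counting interval of 0.984 to 1.32 held 1. ABCG2 was at lower values in knockdown TICs in the 3 lines with reads, most in CALU, where it was 8.77-fold lower (counting interval 7.27 to 10.7), and the test gave an adjusted p of 0.980 in edgeR. CD44 moved in opposite directions: CHAGO knockdown TICs had 45.8 times the TIC level (19.3 to 143), from 212 and 5 reads, whereas the level in CALU knockdown TICs was 0.535 of that in TICs and that in H1299 0.627. The edgeR estimate for CD44 was 1.19 (SE 1.43, adjusted p = 0.981) and was -0.79 without CHAGO.

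Knockdown TICs were also compared with parental cells, which share the knockdown libraries with the comparison before. None of the 6 was called by edgeR, against 0.0357% of all tested genes, and 1 had an unadjusted p under 0.05, against 10.7% of all genes. That gene was ALDH1A3, at 256 ± 489 CPM in knockdown TICs and 35.2 ± 55.0 CPM in parental cells (SD, n = 4 each), with a log2 fold change of 2.40 (SE 0.82, adjusted p = 0.330 in edgeR), higher in 3 lines and lower in H1703. The call depended on the tool and on the genes given to it. DESeq2 on all genes called ALDH1A3, with a log2 fold change of 3.04 and an adjusted p of 0.0113, whereas DESeq2 on the filtered genes gave 0.0835 and limma voom did not call it. DESeq2 on all genes called 885 of the 22506 genes here, against 5 of the 14008 genes tested in edgeR. Of the 22506 genes, 4044 had no read in any library and could not be called. ALDH1A1 had 26.0 ± 50.2 CPM in knockdown TICs and 69.0 ± 134 CPM in parental cells (SD, n = 4 each), with a log2 fold change of -1.92 (SE 0.93, adjusted p = 0.507 in edgeR), lower in the 3 lines with reads.

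**Figure D4:**
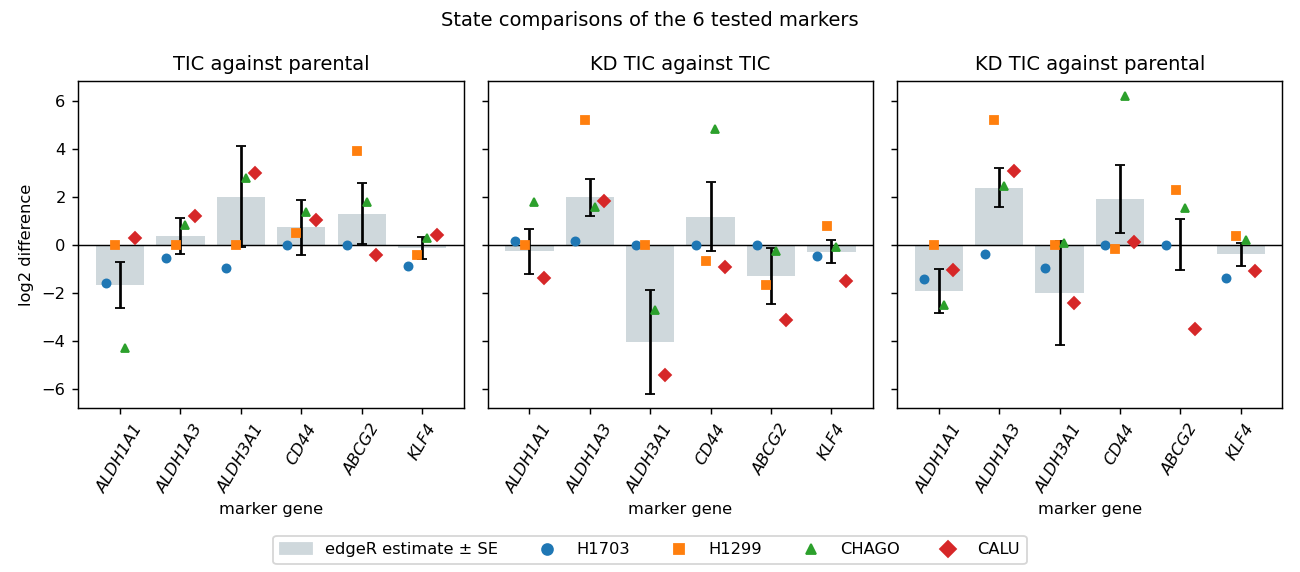
Log2 fold changes of the 6 tested markers in the 3 state comparisons: bars give the edgeR estimate, whiskers its SE, and points the log2 CPM difference in each line. The ALDH1A3 points lie above 0 in all 4 lines for KD TIC against TIC, and the CD44 points lie on both sides of 0.

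Within single lines, each state had 1 library and no test was possible, so a change of 2-fold served as the yardstick for markers at 1 CPM in either library. In knockdown TICs against TICs, 0 of 2 markers passed it in H1703, 2 of 4 in H1299, 3 of 5 in CHAGO and 5 of 6 in CALU, against 32.5%, 33.7%, 23.7% and 29.7% of all genes. In TICs against parental cells the counts were 1 of 2, 1 of 3, 2 of 4 and 4 of 7, against 36.3%, 42%, 32.3% and 35.8%. In knockdown TICs against parental cells they were 1 of 2, 1 of 3, 3 of 4 and 5 of 6, against 35.7%, 37.3%, 33.2% and 37.5%. CALU was the line in which most markers passed. There, in knockdown TICs against TICs, ALDH1A3 was 3.61-fold higher, whereas ABCG2 was 8.77-fold, KLF4 2.85-fold and ALDH1A1 2.57-fold lower. ALDH3A1 had 0 reads in CALU knockdown TICs, against 130 in CALU TICs. The CALU knockdown column carries a name that differs by a letter from its sample title.

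Other genes of the same families were read to set the markers in context, in 9 lists with 0 to 4 genes each at an unadjusted p under 0.05 in a state comparison. The calls given for these lists are edgeR's; limma voom called none of their genes between states. DESeq2 called some: in TICs against parental cells, both on all genes and on the filtered ones, it called ALDH3A2, ALDH1L2, RARG, HMMR and HYAL2, and in knockdown TICs against parental cells TIPARP, ALCAM and KLF7. On all genes it also called DNMT3B, TRIM71, KLF1, LGR6 and TERT in at least 1 state comparison, and none of them on the filtered genes. Apart from DNMT3B, these calls rest on few reads. TRIM71 had 80 reads, all in H1299, and KLF1 had 51, all in CHAGO. LGR6 had 59 reads in H1299 and 5 in CHAGO, and TERT had 11 at most in a line. Run on all genes, DESeq2 called 954 of the 22506 genes in TICs against parental cells. It called 410 in knockdown TICs against TICs and 885 in knockdown TICs against parental cells. Of 16 other aldehyde dehydrogenases, 14 were tested, none was called in a state comparison, and 6 were called between lines, against 45.4% of all tested genes. ALDH3A2, the fatty aldehyde dehydrogenase, led in H1703 with 836 ± 332 CPM, against 118 ± 30.8 CPM in CHAGO (SD, n = 3 each; adjusted p of the line test 0.000218, edgeR). ALDH9A1, an enzyme of carnitine synthesis, led in CHAGO with 367 ± 50.8 CPM (SD, n = 3; adjusted p = 0.00332 in edgeR). In TICs against parental cells ALDH3A2 had the smallest p of the list, with a log2 fold change of 0.95 (SE 0.27, adjusted p = 0.233 in edgeR), higher in 4 of 4 lines. ALDH1A2, the third retinal-oxidizing enzyme, averaged at most 2.17 ± 2.13 CPM (SD, n = 3), in H1299. ALDH3A2, ALDH9A1 and ALDH18A1 averaged 50.8 CPM or more in each of the 4 lines, whichever marker enzyme the line made.

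**Figure D5:**
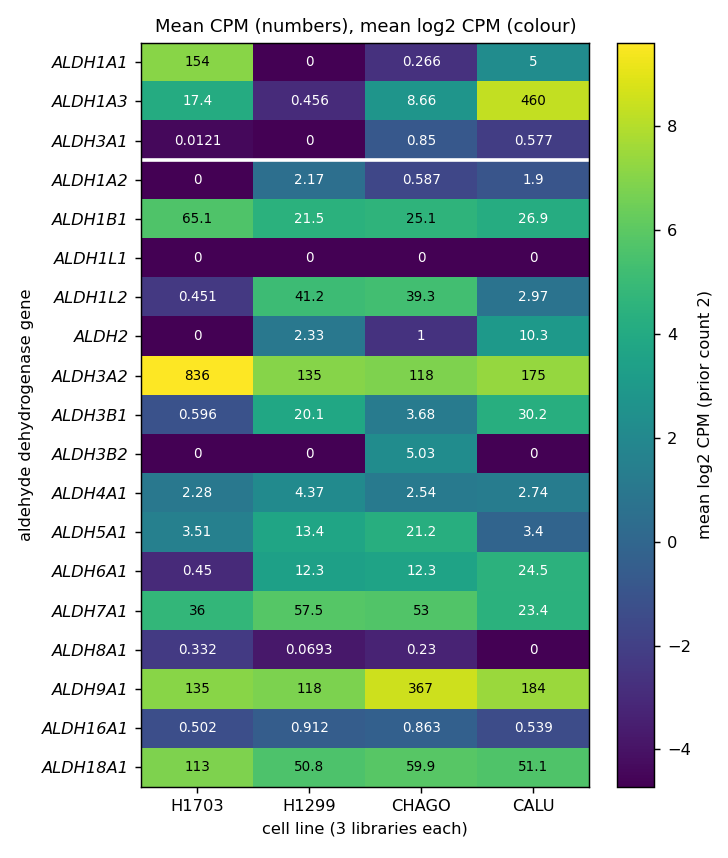
Mean CPM (numbers) and mean log2 CPM (colour, prior count 2) of the 3 marker aldehyde dehydrogenases, above the white line, and 16 others in each line (3 libraries each). ALDH1A1 and ALDH1A3 differ between lines, and ALDH3A2 and ALDH9A1 are at 118 CPM or more in all 4.

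Of 18 genes of retinoic acid synthesis and response, 13 were tested, 0 were called between states and 8 between lines (45.4% of all tested genes). In knockdown TICs against TICs, the median log2 fold change of the 13 was -0.49, against -0.01 over all tested genes. CRABP2, which carries retinoic acid to its receptors, had no read in H1703 and averaged 9.56 ± 2.63 CPM in CHAGO (SD, n = 3). Targets of retinoic acid differed in where they were highest: TGM2 in CALU, with 289 ± 271 CPM, and RARB in H1299, with 3.18 ± 2.29 CPM (SD, n = 3 each). CYP26A1, which degrades retinoic acid and is induced by it, had no read in CALU. Its relative CYP26B1 averaged 10.8 ± 12.7 CPM in CALU and 7.70 ± 8.60 CPM in CHAGO (SD, n = 3 each), with no read in H1703. For the aryl hydrocarbon receptor genes, 7 of 10 were tested, 0 were called between states and 6 between lines (45.4% of all tested genes). The receptor gene AHR averaged 7.30 ± 6.92 CPM in H1703, 85.7 ± 41.0 CPM in H1299, 427 ± 93.1 CPM in CHAGO and 447 ± 176 CPM in CALU (SD, n = 3 each), and its target CYP1B1 1.30 ± 0.808, 58.8 ± 31.6, 674 ± 273 and 371 ± 71.1 CPM in the same lines. TIPARP was also lowest in H1703, with 32.9 ± 10.4 CPM, and CYP1A1 had no read there. AHRR and NQO1 ran the other way. AHRR averaged 20.7 ± 5.43 CPM in H1703 and 0.616 ± 0.768 CPM in CHAGO (SD, n = 3 each). NQO1 averaged 338 ± 84.3 CPM in H1703 and 216 ± 25.5 CPM in CHAGO. ALDH3A1 had all but 1 of its reads in CHAGO and CALU and none in H1299. A link of ALDH3A1 to the receptor was not tested.

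Of 18 other surface markers of tumor-initiating cells, 14 were tested, 0 were called between states and 10 between lines (45.4% of all tested genes). CD24, which is read together with CD44 in breast cancer, averaged 865 ± 154 CPM in CHAGO, 89.4 ± 46.5 CPM in CALU, 0.924 ± 1.41 CPM in H1299 and 0.0900 ± 0.156 CPM in H1703 (SD, n = 3 each). CALU thus had both genes and H1703 almost no read of either. EPCAM averaged 570 ± 122 CPM in CHAGO and had no read in H1703. ALCAM (CD166) had the smallest p of the list in knockdown TICs against TICs, with a log2 fold change of -1.17 (SE 0.44, adjusted p = 0.980 in edgeR), lower in 4 of 4 lines. Of 13 hyaluronan and CD44 partner genes, 11 were tested, 0 were called between states and 5 between lines (45.4% of all tested genes). HAS2, a hyaluronan synthase, averaged 54.1 ± 20.1 CPM in CALU (SD, n = 3) and had no read in H1703, and ESRP1, a splicing factor that acts on CD44, averaged 205 ± 28.4 CPM in CHAGO (SD, n = 3) and had no read in CALU. HMMR, another hyaluronan receptor, had a log2 fold change of -1.70 in TICs against parental cells (SE 0.45, adjusted p = 0.213 in edgeR), lower in 4 of 4 lines.

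Of 14 other ABC drug transporters, 10 were tested, 0 were called between states and 5 between lines (45.4% of all tested genes). ABCB1, which encodes P-glycoprotein, averaged 16.9 ± 7.07 CPM in H1299 (SD, n = 3), and ABCC2 74.4 ± 15.3 CPM in CHAGO. Of 24 genes of the pluripotency network, 17 had a read, 7 were tested, 0 were called between states and 4 between lines (45.4% of all tested genes). LIN28B, which blocks let-7 maturation, averaged 209 ± 71.1 CPM in H1299 and 0.615 ± 0.743 CPM in CHAGO, with no read in CALU (SD, n = 3 each). ZFP42 (REX1) averaged 56.0 ± 9.90 CPM in CHAGO and had no read in the other 3 lines. SOX2 averaged 17.7 ± 18.3 CPM in H1299 and had no read in CALU. These genes had reads while NANOG had none.

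Of 16 other KLF factors, 12 were tested, 0 were called between states and 7 between lines (45.4% of all tested genes). KLF5 averaged 74.8 ± 25.6 CPM in CHAGO and 1.01 ± 0.576 CPM in H1703 (SD, n = 3 each), the same end lines as KLF4. In TICs against parental cells the median log2 fold change of the 12 was 0.62, against -0.02 over all tested genes. Of 17 genes of the LGR5 and R-spondin module, 9 were tested, 0 were called between states and 7 between lines (45.4% of all tested genes). LGR4, the relative of LGR5 that binds the same ligands, averaged 138 ± 34.5 CPM in CALU, 31.8 ± 9.73 CPM in CHAGO, 9.10 ± 3.31 CPM in H1299 and 3.33 ± 3.48 CPM in H1703 (SD, n = 3 each). LGR4 thus had reads in all 4 lines, whereas LGR5 had 2 reads in all.

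The genes most like each tested marker over the 12 libraries were found by Pearson's r of log2 CPM, given as a description because libraries of a line share that line. TGFBI was nearest to CD44 (r = 0.990, n = 12), KRT18 to KLF4 (r = 0.970), RABL3 to ABCG2 (r = 0.982), KIAA0100 to ALDH1A1 (r = 0.961), RPRD1A to ALDH1A3 (r = 0.940) and RASSF6 to ALDH3A1 (r = 0.915). After each line's mean was removed, other genes came first: SIX3 for CD44 (r = 0.975), STYX for ALDH1A3 (r = 0.966) and ZNF470 for ALDH1A1 (r = 0.948). SIX3 had no read in H1299 and CALU, and CD44 had none in H1703. The r of SIX3 and CD44 thus rests on the CHAGO libraries, where SIX3 averaged 0.0746 CPM and CD44 0.954 CPM.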

How the data were processed

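The table holds read counts per gene for 12 libraries, as deposited by the authors; the protocol names Qiagen RNeasy extraction and a NuGEN kit, per the labels. Base calling with CASAVA 1.4, alignment with TopHat 1.4, counting with HTSeq 0.5.3p3 and the build hg19 come from the submitters' processing notes. A second deposited table holds the authors' mode-normalized values, a score per gene made by scaling each library; it served for an alternative. Groups came from the labels, and the 1 library per line and state makes the line a block. The shared lines pair the samples: deviations of same-line libraries correlated at 0.553 to 0.760 over 12 pairs, against -0.414 to -0.0601 for 36 pairs that differ in line and state. The members and gene lists were chosen with earlier results of these data known.

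Counts were fitted with edgeR 4.0.16 (R 4.3.3; TMM, filterByExpr, robust quasi-likelihood, terms for state and line, 6 residual degrees of freedom), with Benjamini-Hochberg adjustment over 14008 genes and a threshold of 0.05. CPM used TMM-scaled sizes; expressed means 1 CPM; log2 CPM used a prior count of 2. RPKM used GENCODE exon unions for 19228 of 22506 genes. Intervals on ratios of counts are exact, at 95%. Named genes are the members and, in each list, the 4 tested genes with the smallest p; further genes were named for their level by line after their values were seen. Alternatives used DESeq2 1.42.0 and limma 3.58.1, other scalings and filters, and libraries left out. DESeq2 on the filtered genes was added after DESeq2 on all genes had called ALDH1A3. On simulated counts, the comparison of knockdown TICs with TICs found 10% of the genes given a log2 change of 1, 68% of those given 2 and 86% of those given 3 (50 genes each, 14008 fitted). The changed genes were drawn from those with a mean log2 CPM above 2. ALDH1A1, ALDH3A1 and ABCG2 lay below that level, so these shares do not cover them. Replicates within a line and state were not analysed here, so p-values of the state comparisons measure the spread between lines. In the line tests the 3 states of a line stood as its replicates and may share a culture. Those p-values measure the spread between states of a line.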

Additional observations from a re-analysis of the deposited data

Results flagged for a closer look

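In all, 7 values stood apart from the other 3 libraries of their state, all for markers at low counts. The usual rate of about 1 in 20 groups by chance does not hold for such counts: for the ALDH3A1, PROM1 and LGR5 values and for POU5F1 in CALU parental cells the other 3 libraries had 0 reads, so any read at all stood apart. ALDH3A1 had 0.278 CPM in CHAGO knockdown TICs, from 21 reads, and no read in the other knockdown TICs. PROM1 had 0.0241 CPM in CALU TICs, from 2 reads, and 1.09 CPM in CALU parental cells, from 94 reads, where the other lines of the same states had none. POU5F1 had 0.395 CPM in CALU knockdown TICs (28 reads), 0.810 CPM in H1703 TICs (18 reads) and 0.139 CPM in CALU parental cells (12 reads). LGR5 had 0.0300 CPM in CHAGO parental cells, from 2 reads. With 1 library per line and state, none of these values has a replicate of its own.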

How the results depend on the processing

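No member was called in TICs against parental cells under 14 alternatives, nor in knockdown TICs against TICs under 15. In knockdown TICs against parental cells, 1 member, ALDH1A3, was called by DESeq2 on all genes, the form planned (log2 fold change 3.04, adjusted p = 0.0113). DESeq2 on the filtered genes, a form added after that call was seen, gave 3.23 with an adjusted p of 0.0835, and the adjusted p of ALDH1A3 was above 0.05 under each alternative other than DESeq2 on all genes. Between lines, leaving out the libraries of a state gave 4 to 5 members. The number of members expressed in every library was 0 to 1 when a line was left out. The fit with no replicate block for the line called 0 members. Changes of sign were all of uncalled values. With no replicate block, the log2 fold change of KLF4 was 0.20 in TICs against parental cells and 0.10 in knockdown TICs against parental cells, that of ALDH1A1 was 0.10 and of CD44 -0.86 in knockdown TICs against TICs, and that of ABCG2 was -0.62 in knockdown TICs against parental cells. With limma voom, KLF4 was at 0.17 in TICs against parental cells, CD44 at -0.81 in knockdown TICs against TICs and ABCG2 at -0.61 in knockdown TICs against parental cells. ABCG2 in that last comparison was at -0.0575 with library totals and -0.0355 with the mode-normalized values. ALDH1A1 in knockdown TICs against TICs was at 0.0746 with only the libraries of the 2 groups and 0.0399 without the CALU knockdown library, where KLF4 was at 0.0478. The cause was not tested. Leaving out a line in turn moved KLF4 between -0.36 and 0.15 in TICs against parental cells. In knockdown TICs against TICs it moved ALDH1A1 between -0.67 and 0.67, CD44 between -0.79 and 2.77 and KLF4 between -0.67 and 0.16. In knockdown TICs against parental cells it moved ABCG2 between -1.27 and 1.89 and CD44 between -0.0127 and 3.70.

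All genes called ran from 0 to 954 in TICs against parental cells (4 in the edgeR fit), 0 to 410 in knockdown TICs against TICs (2) and 0 to 885 in knockdown TICs against parental cells (5), each highest with DESeq2 on all genes. DESeq2 on the filtered genes gave 511, 11 and 400. Between lines they ran from 2342 to 8508, against 6359. Values under about 0.1 CPM are limited by depth.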
